A study of Mus musculus with 6 samples.

Results

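The expression of 35 genes of fatty acid uptake and oxidation was examined in embryonic mouse heart cells after knockdown of DNMT1. DNMT1 is the methyltransferase that copies DNA methylation onto newly made strands. The study describes the cells as cardiomyocytes, and markers of cell types are given below. The genes were taken as a list of mouse symbols and matched to Ensembl identifiers of the GRCm38 genome, and all 35 were found among the 43629 genes of the count files. The cells were prepared from the ventricles of CD-1 mouse embryos at embryonic day 13.5, with the ventricles of a litter pooled, and grown for 48 h. They were transfected at 12 nM with a pool of 4 siRNAs against DNMT1 (DNMT1 siRNA) or with a control siRNA (negative siRNA). No allele was altered in either group. At 72 h after transfection, cells carrying the surface protein VCAM1 were collected with magnetic beads, and their polyadenylated RNA was sequenced in 3 cultures per treatment. Titles and protocol name DNMT1, whereas a tag among the labels gives DNMT3a siRNA for these 3 cultures.

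The targeted gene followed the titles. Normalized counts of Dnmt1, which are read counts scaled to a common library size, were 3446, 2759.5 and 2878 in the negative siRNA cultures and 772, 786 and 666 in the DNMT1 siRNA cultures. The DNMT1 siRNA mean was 24.5% of the negative siRNA mean (log2 fold change -2.03 (SE 0.11), adjusted p = 0.000192, edgeR quasi-likelihood test, Benjamini-Hochberg adjusted over 15470 tested genes). The log2 fold change was 0.24 (SE 0.08) for Dnmt3a (adjusted p = 0.0919) and 0.21 (SE 0.17) for Dnmt3b (adjusted p = 0.444) in the same fit. Reads on genes numbered 27852412 to 35896018 in the negative siRNA libraries and 13739561 to 16186310 in the DNMT1 siRNA libraries. Alignments that were not unique, which are not counted on genes, numbered 24706413 to 32930393 and 21776384 to 25901133 in these groups.

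Several marker lists and read shares moved with the treatment. Markers of cardiomyocytes summed to 2520 to 3385 CPM, counts scaled to library size, with negative siRNA and to 5907 to 7322 CPM with DNMT1 siRNA, and 12 of its 16 genes were up-regulated. Fibroblast markers summed to 36313 to 55894 CPM with negative siRNA, highest in replicate 2, and to 27692 to 29526 CPM with DNMT1 siRNA. The gene Col1a1 alone took 19722 to 30104 and 14381 to 14998 CPM of these sums. Of the 9 fibroblast markers, 3 were down-regulated and 7 had a negative log2 fold change. Thy1 (0.36 (SE 0.07)) and Tcf21 (0.0052 (SE 0.086)) had a positive one. Over all tested genes, 4.26% were up-regulated and 2.23% down-regulated. In RPKM, reads scaled to exon length and library size, the cardiomyocyte markers of the negative siRNA cultures ran from 1.79 for Ttn to 615 ± 102 (SD, n = 3) for Tnnt2, and none was at 0 in any library. The fibroblast markers ran from 20.5 for Pdgfra to 3920.2 ± 1001 RPKM (SD, n = 3) for the collagen gene Col1a1. The sorted cells are described by the study, from earlier flow cytometry, as mostly cardiomyocytes. Against that description, the fibroblast sum exceeded the cardiomyocyte sum in every library, and the levels below are those of all sorted cells together. Endothelial markers summed to 164 to 206 and 327 to 333 CPM, of which 144 to 197 and 222 to 230.2 CPM came from genes other than Npr3. Of 10 tested, 3 were up-regulated and 9 had a positive log2 fold change, while Tek was lower (-0.35 (SE 0.09)). Macrophage markers summed to 17.6 to 49.8 and 14.1 to 22.0 CPM, with 2 of 9 tested down-regulated. Smooth muscle markers summed to 4945 to 7617 and 4216 to 4407 CPM, with none of 5 called. In these lists, only Cd68 (0.18 (SE 0.28)) and Rgs5 (1.10 (SE 0.40)) had positive log2 fold changes. Epicardial markers summed to 1659 to 1904 and 1817 to 1906 CPM, with 1 of 8 down-regulated, and proliferation markers to 652 to 879 and 709 to 733 CPM, with none of 8 called. Adipocyte and erythroid markers summed to at most 0.753 and 2.89 CPM in any library, and every one of the 6 adipocyte markers was at 0 in at least 1 library. Reads on more than 1 gene were 3.62% ± 0.0343 and 6.15% ± 0.175 of uniquely mapped reads, and reads outside annotated exons were 16.4% ± 1.58 and 29.3% ± 4.23 (SD, n = 3 each, two-sided exact permutation test, p = 0.1 in both cases and no lower value possible with 3 against 3). In such bulk samples, fewer cells of a type and less RNA per cell cannot be told apart, and the part that cell makeup and read shares play in the values below was not tested.

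Fatty acids reach the cardiomyocyte from lipoprotein triglycerides and from albumin, are bound in the cytosol, and are activated to acyl-CoA. Carnitine palmitoyltransferases and a translocase carry the acyl group into mitochondria, where a repeated cycle of 4 reactions shortens it and passes electrons to the respiratory chain. The fetal heart relies largely on glucose and lactate, and fatty acid oxidation becomes its main source of energy after birth.

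Of the 35 genes, 33 passed the filter on low counts and were tested. With DNMT1 siRNA, 4 were up-regulated, that is, had a false discovery rate (FDR) below 0.05 and a fold change above 1.5. They were Lpl, which releases fatty acids from lipoproteins, Acacb, which makes the malonyl-CoA that holds back mitochondrial import, Acadl, a first-step enzyme of the cycle, and Pdk4, a kinase that inhibits pyruvate dehydrogenase. Acot2, a mitochondrial thioesterase, was down-regulated, and 28 genes were not called. The up-regulated genes were 12.1% of those tested, against 4.26% of all tested genes, and the down-regulated gene was 3.03%, against 2.23% of all. The median log2 fold change of the 33 genes was 0.05, against -0.0049 over all tested genes, with 19 genes above and 14 below zero, and 10 lay within 0.1 of zero on the log2 scale. All 3 DNMT1 siRNA cultures exceeded all 3 negative siRNA cultures in 8 genes (18.3% of all tested genes did so) and fell below them in 5 (17.7% of all tested genes). The count of up-regulated genes changed when 1 culture was left out. It was 3 without negative siRNA replicate 1 or 2, and 2 without negative siRNA replicate 3. It was 1 without DNMT1 siRNA replicate 1 or 2, and 0 without DNMT1 siRNA replicate 3. Over all tested genes, 630, 823 and 647 were up-regulated without negative siRNA replicates 1, 2 and 3, against 659 in the full fit. Without DNMT1 siRNA replicates 1, 2 and 3, this number was 316, 255 and 314.

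**Figure D1:**
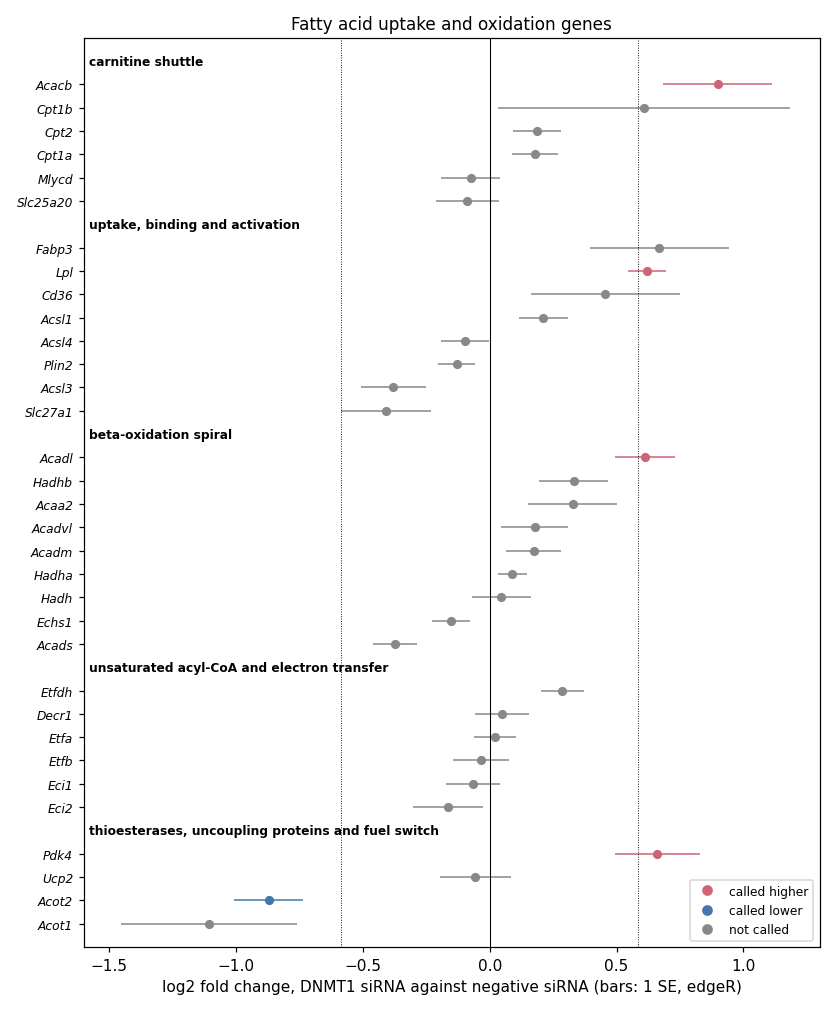
Log2 fold changes of the 33 tested genes (x axis, DNMT1 siRNA against negative siRNA, bars 1 SE from edgeR), grouped by role on the y axis. Dotted lines mark the 1.5-fold limit. Acacb, Lpl, Acadl and Pdk4 (red) lie above the upper line and Acot2 (blue) below the lower one. Fabp3, Cpt1b and Acot1 (grey) lie past the lines without being called, and the other genes lie between them.

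Because the siRNA targets a DNA methyltransferase that acts on CpG dinucleotides, the CpG content of the promoters is shown. RefSeq promoter windows (GRCm38.p6, 250 bases before to 50 after the start) were matched for 30 of the 35 genes, giving 33 windows. Fabp4, Decr1, Lpl, Acaa2 and Cpt1b had no match. Some windows lie inside the gene and not at its first annotated base, among them those of Acacb (chr5:114165268-114165567) and Cd36. The last 30 bases were found in a transcript of the gene for 29 of the 33 windows. A window held a median of 16 CpG (3 to 34), against 7 over 32851 promoter windows and 20 over windows of the tested genes. The stretch from 250 to 51 bases before the start is printed, 5′ to 3′ on the gene's strand with each CG in capitals, for Acadl and Pdk4, which were up-regulated and differ in CpG number, and for the neighbouring thioesterase genes Acot2 and Acot1.
Acadl (chr1:66863360-66863559, - strand): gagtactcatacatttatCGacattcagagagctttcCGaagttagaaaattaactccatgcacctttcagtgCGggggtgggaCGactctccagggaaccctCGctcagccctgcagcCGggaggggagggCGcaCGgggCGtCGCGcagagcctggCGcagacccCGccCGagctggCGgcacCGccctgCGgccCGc
Pdk4 (chr6:5496329-5496528, - strand): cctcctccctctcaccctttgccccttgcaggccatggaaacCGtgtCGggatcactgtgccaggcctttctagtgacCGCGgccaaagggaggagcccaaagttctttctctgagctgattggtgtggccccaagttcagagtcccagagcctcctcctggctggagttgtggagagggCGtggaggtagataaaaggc
Acot2 (chr12:83987611-83987810, + strand): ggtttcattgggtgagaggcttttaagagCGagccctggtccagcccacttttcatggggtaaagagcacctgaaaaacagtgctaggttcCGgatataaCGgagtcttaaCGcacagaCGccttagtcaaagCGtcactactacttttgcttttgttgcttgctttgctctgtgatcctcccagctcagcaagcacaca
Acot1 (chr12:84009252-84009451, + strand): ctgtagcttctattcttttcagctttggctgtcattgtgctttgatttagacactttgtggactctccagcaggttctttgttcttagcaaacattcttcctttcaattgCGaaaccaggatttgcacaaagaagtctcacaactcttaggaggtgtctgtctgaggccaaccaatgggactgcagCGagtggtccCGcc
The printed stretch held 18 CG in Acadl, 5 in Pdk4, 6 in Acot2 and 3 in Acot1. Over the whole windows the numbers were 34 for Acadl, 12 for Pdk4, 10 for Acacb, 10 for Acot2 and 9 for Acot1. Among windows of genes that were not called or not tested, the number of CpG ran from 3 in Cd36 to 33 in Acsl3 and Acsl4. Methylation of these promoters was not measured. The bisulfite sequencing of the study covered promoters of other genes, none of them among the 35. Searched on both strands, the TATA box TATAAA occurred in 1 of the 33 windows, that of Acacb. It occurred in 13.6% of all promoter windows and in 7.32% of windows of the tested genes. The direct repeat bound by peroxisome proliferator-activated receptors (PPARs) and the element bound by estrogen-related receptors, each searched as 1 exact sequence, occurred in none of the 33 windows and in 0.0396% and 0.423% of all. Over windows of the tested genes, the shares were 0.0434% and 0.260%.

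Of the 9 genes of uptake, binding and activation, 8 were tested and 1 was up-regulated. Normalized counts of Lpl, lipoprotein lipase (chr8:68880491-68907448), were 3856, 3335 and 3666 with negative siRNA and 5632, 5328 and 5731 with DNMT1 siRNA. The groups did not overlap, and the cultures within each group lay close together. The log2 fold change was 0.62 (SE 0.07), a 1.54-fold increase (adjusted p = 0.00253, edgeR quasi-likelihood test, Benjamini-Hochberg adjusted). The fold change was just past the limit. It was 0.565 on the log2 scale without negative siRNA replicate 2 and 0.583 without DNMT1 siRNA replicate 3, both under the limit of 0.585, with adjusted p = 0.000532 and 0.0267 from the same edgeR test.

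Fabp3, the heart-type fatty acid binding protein, was counted 94, 63 and 44 times with negative siRNA and 63, 53 and 30 times with DNMT1 siRNA, or 54.9, 43.4 and 34.2 and 84.5, 77.3 and 49.1 after normalization. Replicate 3 with DNMT1 siRNA fell within the range of the negative siRNA cultures. The log2 fold change of 0.67 (SE 0.27) was past the fold limit and not called (adjusted p = 0.149, edgeR), and 26.0% of the 75-base stretches of its transcripts also occur in other genes, among them Fabp3-ps1 and Zcchc17. Fabp4, the adipocyte and endothelial binding protein, had 6, 9 and 6 reads and 3, 5 and 6 reads and was too low to be tested. Cd36, the fatty acid translocase of the cell membrane, had 34, 51 and 45 and 32, 31 and 21 reads, and its log2 fold change of 0.46 (SE 0.29) was not called (edgeR, adjusted p = 0.344). With at most 51 reads per culture, a 1.5-fold change in Cd36 was not detectable beyond 2 SE.

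Slc27a1, a transport protein that also activates fatty acids, had a log2 fold change of -0.41 (SE 0.18) and overlapping groups. Among the acyl-CoA synthetases, Acsl1, which is the major one of adult heart, had normalized counts of 454, 416 and 427 against 552, 478 and 471, Acsl3 of 906, 689 and 667 against 559, 628 and 553, and Acsl4, which prefers arachidonate, of 3393, 2629 and 3184 against 2886, 2832 and 2883. The DNMT1 siRNA cultures were all above the negative siRNA cultures for Acsl1 and all below them for Acsl3, and the groups overlapped for Acsl4. None was called, with log2 fold changes of 0.21 (SE 0.10), -0.38 (SE 0.13) and -0.10 (SE 0.09) and adjusted p = 0.186, 0.0936 and 0.532 (edgeR). Plin2, the coat protein of lipid droplets, was at 1092, 1167 and 1053 against 1034, 966 and 1027 (log2 fold change -0.13 (SE 0.07), adjusted p = 0.285).

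Of the 6 genes of the carnitine shuttle and its control, 1 was up-regulated. Normalized counts of Acacb, acetyl-CoA carboxylase 2 (chr5:114146535-114250761), were 166, 291 and 268 with negative siRNA and 524, 445 and 376 with DNMT1 siRNA. Every DNMT1 siRNA culture was above every negative siRNA culture, and negative siRNA replicate 1 was well below the other two. The log2 fold change was 0.90 (SE 0.22), a 1.86-fold increase (adjusted p = 0.0329, edgeR quasi-likelihood test, Benjamini-Hochberg adjusted). Acacb was not called without DNMT1 siRNA replicate 1 (0.75, adjusted p = 0.128), 2 (0.90, adjusted p = 0.126) or 3 (0.99, adjusted p = 0.0713). Mlycd, malonyl-CoA decarboxylase, which removes the product of Acacb, had 354, 434 and 446 normalized counts against 414, 370.2 and 386, overlapping groups and a log2 fold change of -0.08 (SE 0.11).

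The shuttle enzymes themselves were not called. Cpt1a, the carnitine palmitoyltransferase 1 of liver and fetal heart, had normalized counts of 2133, 1746 and 1800.2 against 2121, 2063 and 2247 and a log2 fold change of 0.18 (SE 0.09). Cpt1b, the muscle form, was near the limit of detection, with 15, 6 and 14 reads against 11, 12 and 2 reads, or 8.75, 4.14 and 10.9 and 14.8, 17.5 and 3.27 after normalization. Its groups overlapped, with the lowest value of all in DNMT1 siRNA replicate 3, and its log2 fold change of 0.61 (SE 0.57) was past the fold limit without being called (adjusted p = 0.521, edgeR). Of its 75-base stretches, 92.1% also lie in Gm44502, an overlapping gene model that is not among the counted genes. The inner membrane enzyme Cpt2 differed by 0.19 (SE 0.09) on the log2 scale and the translocase Slc25a20 by -0.09 (SE 0.12), with adjusted p = 0.232 and 0.674 (edgeR).

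Within a culture, the log2 ratio of Cpt1b to Cpt1a averaged -7.94 ± 0.65 after negative siRNA and -7.68 ± 1.24 after DNMT1 siRNA (SD over 3 cultures, two-sided exact permutation test, p = 0.8). Of this pair, Cpt1a was by far the more counted in both groups. Cpt1c, a further gene of the family, was at 23.7 RPKM with negative siRNA and 29.9 RPKM with DNMT1 siRNA. Cpt1a was at 20.2 and 22.9 RPKM. The ratio of Acsl1 to Acsl4 was -2.82 ± 0.14 and -2.52 ± 0.12 (exact permutation test, p = 0.1, the smallest possible), higher in 3 of 3 DNMT1 siRNA cultures. The ratios of Fabp3 to Fabp4 (3.13 and 3.23, exact permutation test, p = 1), Ucp3 to Ucp2 (-10.97 and -11.38, p = 0.9) and Acot1 to Acot2 (-1.97 and -2.10, p = 0.7) overlapped between the groups. These 5 ratios are log2 ratios of counts and are not corrected for gene length. None could pass 0.05 even before adjustment, since the exact permutation test allows no p below 0.1 here.

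Of the 9 genes of the oxidation cycle, 1 was up-regulated. Normalized counts of Acadl, the long-chain acyl-CoA dehydrogenase (chr1:66830839-66863277, promoter printed above), were 1381, 1586 and 1132 with negative siRNA and 2202, 2076 and 1990.4 with DNMT1 siRNA. The groups did not overlap, and the lowest culture was negative siRNA replicate 3. On the log2 scale the difference was 0.61 (SE 0.12), a 1.53-fold increase (adjusted p = 0.0159, edgeR quasi-likelihood test, Benjamini-Hochberg adjusted). Acadl was not called without negative siRNA replicate 3 (0.50, adjusted p = 0.0168), where it fell under the fold limit, nor without DNMT1 siRNA replicate 1 (0.55, adjusted p = 0.0810), 2 (0.61, adjusted p = 0.0787) or 3 (0.63, adjusted p = 0.0623).

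The other first-step dehydrogenases differ from Acadl in the chain length they accept, and none was called. For Acads, the short-chain enzyme, normalized counts were 709.6, 841 and 738 with negative siRNA and 590.0, 602 and 574 with DNMT1 siRNA, without overlap. Its decrease passed the FDR limit and not the fold limit (log2 fold change -0.37 (SE 0.09), adjusted p = 0.0314, edgeR), and its adjusted p was 0.101, 0.124 and 0.116 without DNMT1 siRNA replicates 1, 2 and 3. Acadm, the medium-chain enzyme, had a log2 fold change of 0.17 (SE 0.11) and Acadvl, the very long-chain enzyme, one of 0.18 (SE 0.13), with overlapping groups. Acadvl shares 42.9% of its exon length with Dvl2 on the opposite strand and 13.6% of its 75-base stretches with it, and the strand setting of the counting is not given.

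No gene of the later steps was called. Hadha, the alpha subunit of the trifunctional protein, had normalized counts of 2966, 2949.8 and 2935 against 3209, 3109 and 3096, and its log2 fold change was 0.09 (SE 0.06) with adjusted p = 0.342 although the groups did not overlap. Hadhb, the beta subunit, whose gene starts 85 bases from Hadha on the other strand of chr5, was at 164, 156 and 148 against 170.3, 214 and 204 (log2 fold change 0.33 (SE 0.14), adjusted p = 0.148). The 2 subunits form one complex, but Hadhb was counted at 3.45 ± 0.180 RPKM and Hadha at 33.8 ± 0.180 RPKM (SD, n = 3, negative siRNA), and 52.7% of the 75-base stretches of Hadhb also occur in Gm13910 or Gm9108, so its level is uncertain. Echs1, enoyl-CoA hydratase, had a log2 fold change of -0.15 (SE 0.07), Hadh, the dehydrogenase of the third step, one of 0.05 (SE 0.12), and Acaa2, the thiolase of the last step, one of 0.33 (SE 0.18). Acaa2 varied most between negative siRNA cultures of this trio, from 747 in replicate 1 to 1272 in replicate 2.

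None of the 6 genes of unsaturated acyl-CoA handling and electron transfer was called. The isomerases Eci1 and Eci2 and the reductase Decr1, which prepare unsaturated fatty acids for the cycle, had log2 fold changes of -0.07 (SE 0.11), -0.16 (SE 0.14) and 0.05 (SE 0.11). Etfa and Etfb, the subunits of the flavoprotein that takes electrons from the acyl-CoA dehydrogenases, had 0.02 (SE 0.08) and -0.03 (SE 0.11). Etfdh, which passes these electrons to ubiquinone, had normalized counts of 839.7, 1009 and 879 against 1106, 1102 and 1117. Its groups did not overlap, and its log2 fold change of 0.29 (SE 0.09) missed the FDR limit (adjusted p = 0.0643, edgeR). Of the 75-base stretches of Etfb, 66.3% also lie in Gm45233, an overlapping gene model on the same strand that is not among the counted genes.

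Of the 5 thioesterase, uncoupling and fuel switch genes, 4 were tested, with 1 up-regulated and 1 down-regulated. Normalized counts of Acot2 (chr12:83987861-83993873), which splits acyl-CoA in the mitochondrial matrix, were 324, 377 and 392 with negative siRNA and 199.8, 172 and 226 with DNMT1 siRNA. Every DNMT1 siRNA culture was below every negative siRNA culture. Its log2 fold change was -0.87 (SE 0.14), a 1.83-fold decrease (adjusted p = 0.00681, edgeR quasi-likelihood test, Benjamini-Hochberg adjusted), and it was called in all 6 fits that left out 1 culture (-0.98 to -0.78). Acot1 (chr12:84009490-84018371), its cytosolic relative, starts 15616 bases downstream of the end of Acot2. It stood at 81.1, 153 and 63.8 with negative siRNA and 48.3, 37.9 and 52.3 with DNMT1 siRNA. Its groups did not overlap either, but negative siRNA replicate 2 was far above the other two, and the log2 fold change of -1.11 (SE 0.35) was not called (adjusted p = 0.0740, edgeR). Acot1 was called without negative siRNA replicate 3 (-1.34, adjusted p = 0.0374), and without replicate 2 its log2 fold change was -0.66 (adjusted p = 0.0811). The genes share sequence, with 26.4% of the 75-base stretches of Acot1 and 21.2% of those of Acot2 also found in other genes, which include each other, so their counts are uncertain.

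Normalized counts of Pdk4 (chr6:5483351-5496309), which shifts fuel use from glucose to fatty acids, were 103, 121 and 83.2 with negative siRNA and 161, 156 and 170.1 with DNMT1 siRNA. The groups did not overlap, and the spread was wider with negative siRNA. Its log2 fold change was 0.66 (SE 0.17), a 1.58-fold increase (adjusted p = 0.0392, edgeR quasi-likelihood test, Benjamini-Hochberg adjusted). Pdk4 was called in only 1 of the 6 fits that left out a culture, that without negative siRNA replicate 2 (0.80, adjusted p = 0.00935). Without negative siRNA replicate 1 or 3 it was 0.66 (adjusted p = 0.0621) and 0.54 (adjusted p = 0.0621), and without DNMT1 siRNA replicates 1, 2 and 3 it was 0.64, 0.69 and 0.61 (adjusted p = 0.133, 0.137 and 0.152). Ucp2, a mitochondrial carrier of the uncoupling protein family, was at 7248, 5931 and 4694 against 5923, 5450.1 and 5813 with a log2 fold change of -0.06 (SE 0.14). Ucp3, the muscle form, lies 6904 bases from Ucp2 and had 6, 3 and 3 reads with negative siRNA and 2, 2 and 0 reads with DNMT1 siRNA, where the count of 0 allows up to 3 reads by counting error alone. It was not tested.

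**Figure D2:**
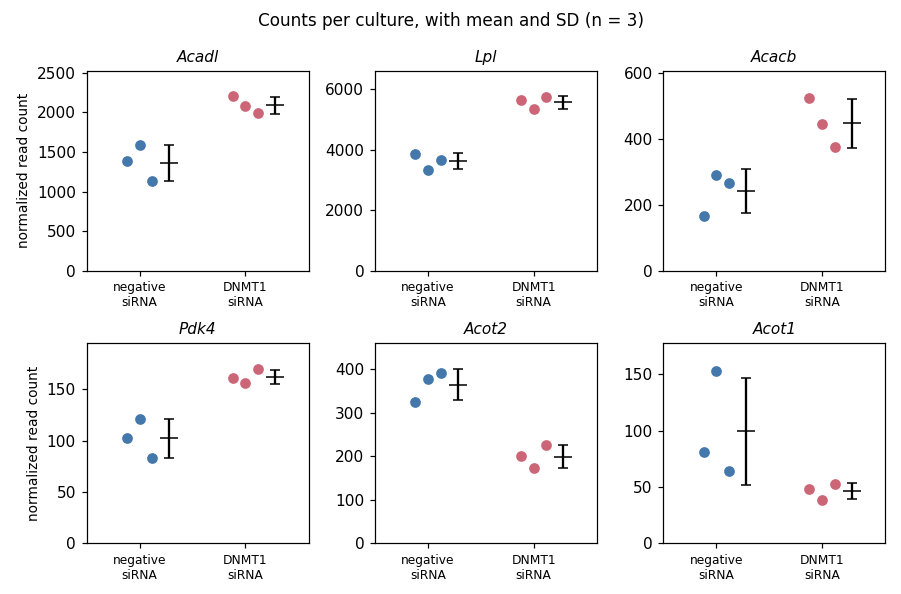
Normalized read counts (y axis, linear from 0) of 6 genes in each of the 3 negative siRNA (blue) and 3 DNMT1 siRNA (red) cultures, with the mean and SD in black. The groups do not overlap in any panel, and the high negative siRNA culture of Acot1 at 153 is replicate 2.

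**Figure D3:**
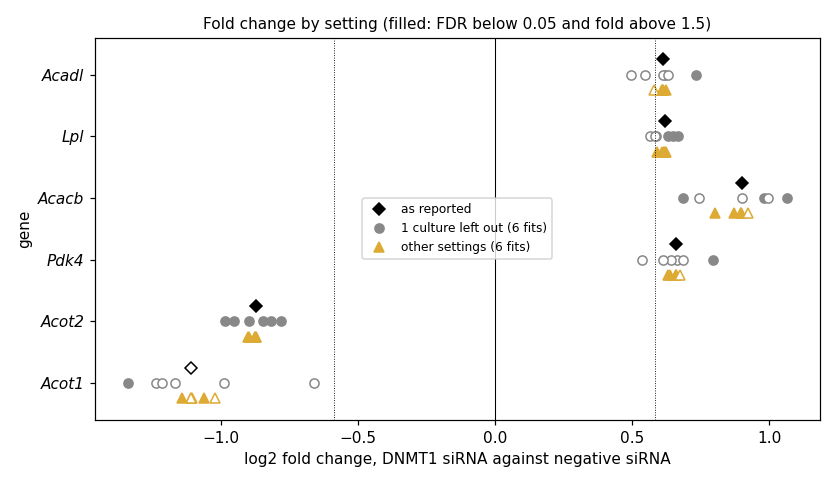
Log2 fold changes (x axis) of the same 6 genes under the reported fit (diamond), the 6 fits without 1 culture (circles) and 6 other settings (triangles), filled where the gene passed both limits, with dotted lines at the 1.5-fold limit. Acot2 is filled throughout, whereas Acadl, Lpl and Pdk4 straddle or touch the upper line.

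The levels of the genes, compared per length, spanned a wide range. With negative siRNA, Ucp2 was highest at 68.8 ± 14.7 RPKM (SD, n = 3), followed by Etfb at 58.3 ± 6.13, Lpl at 40.5 ± 2.95, Echs1 at 38.9 ± 2.21, Hadha at 33.8 ± 0.180, Acadl at 32.8 ± 5.46 and Acaa2 at 30.7 ± 7.97 RPKM. The ranges of mean ± SD of neighbours in this order overlapped, apart from the pairs Etfb and Lpl, and Echs1 and Hadha. With DNMT1 siRNA, Lpl reached 62.3 ± 2.35 RPKM and Acadl 50.2 ± 2.56 RPKM, beside 66.2 ± 2.86 for Ucp2 and 56.9 ± 6.49 for Etfb. The lowest were Cd36 at 0.391 ± 0.115, Fabp4 at 0.246 ± 0.0697, Cpt1b at 0.126 ± 0.0549 and Ucp3 at 0.0496 ± 0.0143 RPKM with negative siRNA. Cpt1a stood at 20.2 ± 2.24 RPKM and Fabp3 at 2.47 ± 0.579 RPKM. All 35 genes together took 1624, 1612 and 1461 CPM with negative siRNA and 1745, 1669 and 1677 CPM with DNMT1 siRNA.

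**Figure D4:**
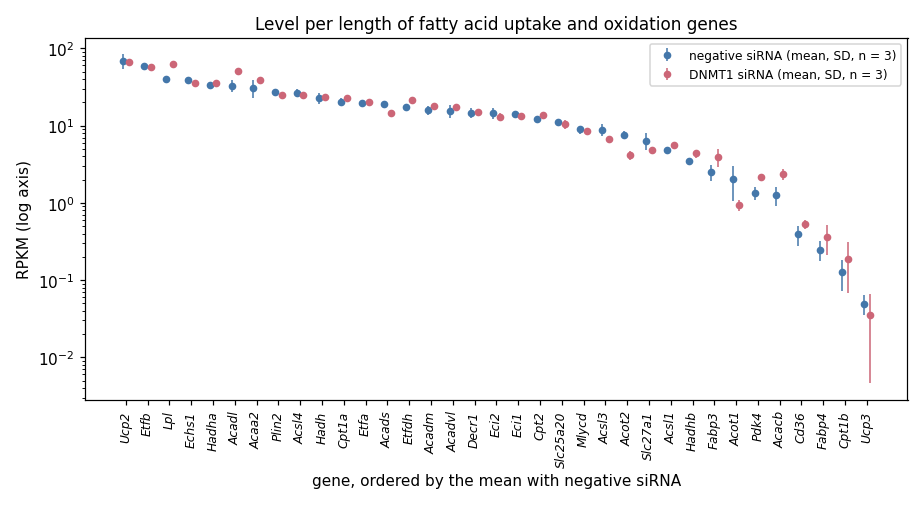
Levels of the 35 genes in RPKM (log y axis, mean and SD, n = 3 per group), ordered by the negative siRNA mean. Values run from Ucp2 at 68.8 RPKM to Ucp3 at 0.0496 RPKM with negative siRNA.

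The negative siRNA cultures varied more. The median coefficient of variation of the 33 tested genes was 12.9% in the negative siRNA group and 5.73% in the DNMT1 siRNA group, beside 12.2% and 6.88% over all tested genes. Negative siRNA replicate 2, which also had the highest sums of fibroblast, cardiomyocyte, endothelial and smooth muscle markers among them, held the highest of the 3 negative siRNA values in 20 of the 33 genes (60.6%), against 38.1% of all tested genes.

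Another 146 genes of fatty acid metabolism were listed by role, and 123 of them were tested. With DNMT1 siRNA, 12 were up-regulated (9.76%, against 4.26% of all tested genes) and 1 was down-regulated (0.813%, against 2.23%), and the median log2 fold change was 0.07. All DNMT1 siRNA cultures exceeded all negative siRNA cultures in 37 of them (18.3% of all tested genes did so) and fell below them in 13 (17.7% of all). The number up-regulated was 7 without DNMT1 siRNA replicate 1 or 2 and 8 without replicate 3. Over all tested genes it was 316, 255 and 314 without DNMT1 siRNA replicates 1, 2 and 3, against 659 in the full fit. The number down-regulated was 0 without DNMT1 siRNA replicate 2 and 2 without negative siRNA replicate 1. Over all tested genes it was 112 and 472 in these fits, against 345 in the full fit. Among 17 tested regulators, 4 were up-regulated. Ppargc1a and Ppargc1b, the coactivators of mitochondrial gene expression known as PGC-1 alpha and beta, had log2 fold changes of 1.09 (SE 0.26) and 0.80 (SE 0.17) (adjusted p = 0.0315 and 0.0199, edgeR). Esrrg, an estrogen-related receptor of oxidative muscle, had 1.23 (SE 0.20) and Perm1, a muscle regulator acting with them, 1.08 (SE 0.17) (adjusted p = 0.00752 and 0.00675, edgeR). The receptors that bind fatty acids directly were not called. Their log2 fold changes were 0.32 (SE 0.27) for Ppara, -0.01 (SE 0.07) for Ppard and 0.71 (SE 0.25) for Pparg. Pparg was past the fold limit and missed the FDR limit. The log2 fold change of Esrra was 0.12 (SE 0.12). Ppara was counted at only 16 to 39 reads per culture. When 1 culture was left out, Perm1 was called in all 6 fits and Esrrg in 5, but not without DNMT1 siRNA replicate 2 (adjusted p = 0.0543). Ppargc1b was not called without DNMT1 siRNA replicate 1, 2 or 3 (adjusted p = 0.0984, 0.102 and 0.0510). Ppargc1a was called only without negative siRNA replicate 2 (1.46), and without negative siRNA replicate 1 or 3 or DNMT1 siRNA replicate 1, 2 or 3 its adjusted p was 0.0605, 0.0608, 0.101, 0.135 and 0.104 (edgeR).

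**Figure D5:**
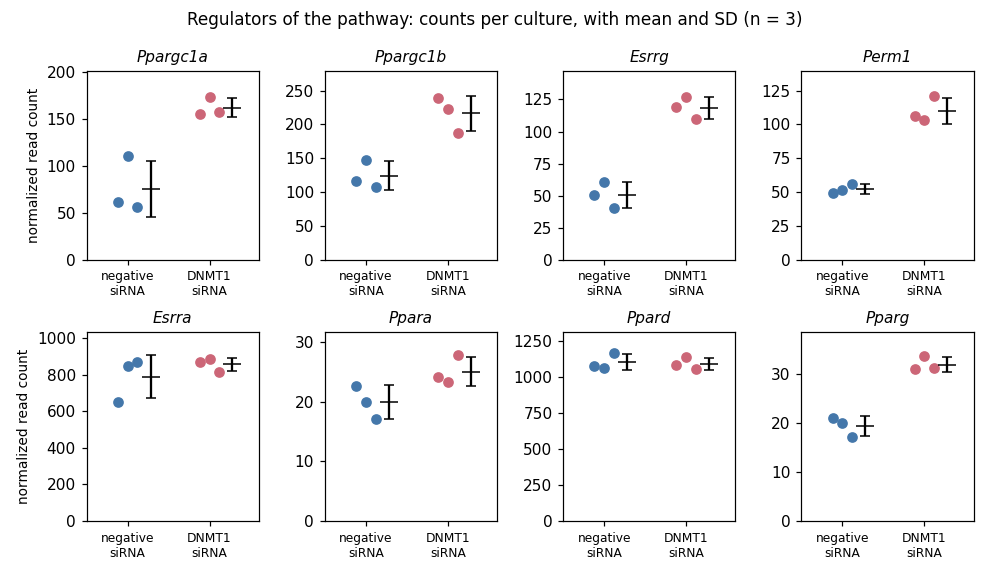
Normalized read counts (y axis, linear from 0) of 8 regulators in the 3 negative siRNA (blue) and 3 DNMT1 siRNA (red) cultures, with mean and SD in black. Ppargc1a, Ppargc1b, Esrrg and Perm1 do not overlap between the groups, whereas Esrra and Ppard do. Ppara and Pparg were not called, although their groups do not overlap.

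The remaining calls lay in 5 lists. Of 18 tested genes of fuel switch and uncoupling, the subunits of AMP-activated kinase Prkaa2 (0.90 (SE 0.08), a log2 fold change as all those in this paragraph) and Prkab2 (0.70 (SE 0.08)) were up-regulated. Of 19 genes of triglyceride storage and lipolysis, Plin4 (1.57 (SE 0.25)), Pnpla3 (3.12 (SE 0.31)) and Cidea (2.62 (SE 0.27)), all lipid droplet proteins, were up-regulated, with adjusted p = 0.00747, 0.00125 and 0.00141 (edgeR). Normalized counts of Pnpla3 were 5.84, 11.7 and 12.4 with negative siRNA and 96.5, 84.5 and 76.9 with DNMT1 siRNA. Those of Cidea were 11.7, 13.1 and 11.7 and 93.9, 58.3 and 73.6. The log2 fold changes of Pnpla3 and Cidea were larger in size than that of any of the 35 genes. They start from low counts, 10 to 17 reads of Pnpla3 and 15 to 20 of Cidea per negative siRNA culture. Of 16 genes of uptake, binding and activation outside the 35, the thioesterase gene Acot11 was up-regulated (0.65 (SE 0.14)) and the transport protein gene Slc27a6 down-regulated (-1.70 (SE 0.27), adjusted p = 0.00786, edgeR), from 124, 203 and 113 to 45.6, 37.9 and 52.3 normalized counts. One of 17 peroxisomal genes, the transporter Abcd2 (1.27 (SE 0.26)), and 1 of 24 further genes of mitochondrial oxidation, Acad11 (0.62 (SE 0.10)), were up-regulated. None of the 13 tested genes of fatty acid synthesis was called by edgeR, where 3 had an unadjusted p below 0.05. One of them, the desaturase gene Scd1, passed the FDR limit and not the fold limit (0.39 (SE 0.09), adjusted p = 0.0305), without overlap between the groups. Log2 fold changes of the 13 ran from -0.26 to 0.39. Scd1 was among 11 of the 123 tested genes outside the 35 that passed the FDR limit and not the fold limit. Of all 15470 tested genes, 924 did so. Prkaa2, Prkab2, Plin4, Pnpla3 and Cidea were called in all 6 fits that left out a culture. Slc27a6 was not called without DNMT1 siRNA replicate 2 (-1.59, adjusted p = 0.0549, edgeR), Acad11 not without DNMT1 siRNA replicate 1 (0.55, adjusted p = 0.0531), and Abcd2 not without DNMT1 siRNA replicate 1, 2 or 3 (adjusted p = 0.0617, 0.109 and 0.0890). Acot11 fell under the fold limit without negative siRNA replicate 2 (0.55) and missed the FDR limit without DNMT1 siRNA replicate 1, 2 or 3 (adjusted p = 0.0830, 0.120 and 0.0890).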

How the data were processed

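RNA-Seq was run on 6 cultures (3 per treatment) as a single run of 75-base reads. The authors cleaned the reads with FastQC, mapped them to mm10 with TopHat2 and counted them with HTSeq on Ensembl release 79 genes, and deposited raw counts per gene, without normalization; tool versions and the strand setting are not given in the sources used here. Low-count genes were removed with filterByExpr (minimum count 10, minimum total 15) in edgeR 4.0.16 (R 4.3.3), counts were scaled by TMM, and 15470 genes were tested by the quasi-likelihood test with Benjamini-Hochberg adjustment. Genes with FDR below 0.05 and absolute fold change above 1.5 were called. RPKM used merged exons of protein-coding transcripts of a newer GENCODE annotation of GRCm38 and the TMM library size. Ratios used 0.5 added reads. Depth was 13739561 to 35896018 reads on genes, and the limit given for a count of 0 covers counting error only. No library was a copy of another, since the chi-square per degree of freedom between replicates was 2.70 to 54.5. The p-values measure the spread between these cultures, which the labels do not tie to separate litters. The 35 genes and all lists were chosen with earlier results of these data known. Values per culture were given for those of the 35 genes that passed both limits or either one, and for some of the rest. Genes of other lists were named if called, besides Scd1, Cpt1c and the fixed PPAR, PGC-1 and ERR regulators. Mitochondrially encoded mRNAs (9 genes) were at 0 in every library and gave no check of RNA quality. The pipeline was tested on simulated counts. Alternatives were DESeq2 1.42.0, the edgeR exact test, RLE scaling, no filter, thinning to the smallest library, a replicate block, no fold limit and leaving out each culture.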

Additional observations from a re-analysis of the deposited data

How the results depend on the processing

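Fold changes of the 33 tested genes of uptake and oxidation were compared under the alternatives apart from no fold limit. Of these, 361 kept their direction and their status as called or not called, 17 lost and 5 gained a call, and 12 changed sign. Another 20 genes were compared, namely the called genes of the other lists, the fixed regulators, and Dnmt1, Dnmt3a and Dnmt3b. Of their fold changes, 218 kept direction and status, 20 lost the call and 2 changed sign. The number of up-regulated genes was 2 with the replicate block and 0 to 3 when 1 culture was left out, and the number down-regulated was 2 with DESeq2, the exact test, no filter, thinning or no fold limit, and 1 to 2 when 1 culture was left out. Acot1 joined Acot2 with DESeq2 (-1.11, adjusted p = 0.0226), the edgeR exact test (-1.11, adjusted p = 0.0285), no filter and thinning, and Acads did so without the fold limit. The replicate block, which left 513 genes up-regulated and 285 down-regulated over all genes, ended the calls of Acacb (adjusted p = 0.0637) and Pdk4 (adjusted p = 0.0724) and of Acot11 (adjusted p = 0.0547), and no other call among the named genes in the edgeR fit. Cultures with the same number did not vary together (r = -0.021 to 0.027 over 3 pairs). Over all genes, 994 were up-regulated and 701 down-regulated with no filter, where the median log2 fold change was 0.11, 1054 and 874 without the fold limit, and 255 to 823 and 112 to 472 when 1 culture was left out, where fewer samples were tested. Of the other pathway genes, 22 were up-regulated without the fold limit and 7 to 14 when 1 culture was left out, and 2 were down-regulated with DESeq2, the exact test or no fold limit, 3 with no filter, and 0 to 2 when 1 culture was left out. Acadl was under the fold limit with no filter (0.58). Sign changes were confined to genes near zero. When 1 culture was left out, they were Ppard (-0.045 to 0.031), Esrra (-0.0027 to 0.19), Hadh (-0.018 to 0.18) and Decr1 (-0.023 to 0.17). In the same fits, Etfa (-0.039 to 0.071), Etfb (-0.15 to 0.054) and Ucp2 (-0.20 to 0.11) also changed sign. Etfa did so with no filter (-0.0096) and when thinned (-0.037), and Eci1 when thinned (0.020). The cause of these shifts was not tested. Depth limits Cpt1b, Fabp4, Ucp3 and Cd36, with at most 51 reads in any culture.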
